A study of Mus musculus with 2 samples.

Results

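Genes of cholesterol synthesis and targets of the transcription factor SREBP2 were compared between marrow-derived macrophages of mice lacking Tipe1 and of control mice. The 26 genes were taken by symbol from a table of 46095 genes, and every one of them was found. They comprised 19 enzymes of the pathway, SREBP2 (Srebf2) with 3 proteins that control it, 2 genes of sterol transport and storage, and the lipin gene Lpin1. All 26 passed the filter on low values, a mean of at least 1 CPM (reads scaled to an effective library size of 1e6) over both libraries, which 12495 genes passed. The series title gives macrophage polarization as the subject of the study.

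The cells were grown from femur and tibia marrow of C57BL/6 mice for 5 days in medium holding M-CSF (macrophage colony-stimulating factor) at 100 ng/ml, and their total RNA was sequenced. M-CSF turns marrow progenitors into macrophages. The KO library came from cells with the genotype label TIPE1-/-, and the design text describes these mice as LyzM-Cre; Tipe1f/f, in which Cre recombinase is made from the lysozyme gene Lyz2 in myeloid cells. The WT library carries the label wild type, and the design text describes the control mice as Tipe1f/f, so both groups would carry floxed alleles and the KO group alone Cre. TIPE1, encoded by Tnfaip8l1, belongs to the TNFAIP8 family. Each genotype had 1 library, so no difference here has a replicate check and no p-value is given, and differences between cultures, between animals and between genotypes cannot be told apart. How many mice were used, and whether marrow was pooled, is not given in the sources used here.

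Cells make cholesterol from acetyl-CoA. The mevalonate arm builds isoprenoid units, farnesyl diphosphate is joined into squalene, squalene is closed into lanosterol, and a series of endoplasmic reticulum enzymes turns lanosterol into cholesterol. SREBP2 is a membrane-bound transcription factor held in the endoplasmic reticulum by the sterol sensor SCAP and the INSIG proteins while sterols are plentiful. When sterols run low SCAP escorts it to the Golgi, where proteases release the part that enters the nucleus and switches on the pathway's genes. Macrophages take up much cholesterol from engulfed cells and lipoproteins, and store the surplus as esters made by SOAT1 or pass it out of the cell.

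Total counts were 11782664 (WT) and 15815956 (KO), and 3 reads corresponded to 0.248 CPM and 0.194 CPM. Tnfaip8l1 had 21 reads (WT) and 3 (KO), a ratio of 0.112 (95% counting interval 0.0214 to 0.375); reads outside the deleted exons, which are not named in the sources used here, would not register the deletion. The macrophage markers Csf1r (2646 CPM in the WT library, 2414 in the KO library) and Cd68 (1493 and 1589 CPM) were abundant in both libraries. Markers of other cells differed. Of 15 tested fibroblast and stroma markers 14 were at least 1.5-fold lower in the KO library and the other one, Thy1, was not, and the 16 listed summed to 1975 CPM (WT) and 176 CPM (KO). Of the neutrophil, monocyte and B cell markers, 4 of 9, 4 of 5 and 4 of 4 tested were lower, against 7.23% of all tested genes. Their sums were 705, 638 and 12.6 CPM (WT) and 505, 252 and 2.46 CPM (KO). The B cell markers had few reads, at most 49 (WT) and 19 (KO), in Cd79b. All 5 adipocyte markers were listed at 0 in both libraries, as was the stromal marker Tagln, and these zeros are not read as absence. In bulk RNA fewer cells of a type and less RNA per cell cannot be told apart. The part of these other cells in the sterol gene values was not tested.

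The sterol pathway genes lay slightly higher in the KO library as a group, with the largest group median at the squalene steps. Hsd17b7 (1.79-fold), Sqle (1.65-fold) and Insig1 (1.52-fold) were higher by at least 1.5-fold with a counting interval above 1, which is 3 of 26, where 6.47% of all tested genes met that rule, or 5.45% of those within the members' range of mean CPM. By the same rule in the other direction 0 of 26 were lower, against 7.23% of tested genes. With the limit at 25% higher, 10 of 26 passed it, against 12.1%, and 0 were at least 20% lower, against 11.4%. The ratio was above 1 for 18 of 26 genes, against 51.8% of tested genes, and the interval lay above 1 for 14, against 22.8%, and below 1 for 2 (Ebp and Soat1), against 18.4%. The median log2 ratio, taken with 0.5 CPM added to both values, was 0.29 (1.22-fold), against 0.01 over all tested genes, and the middle range from the lower to the upper quartile ran from -0.03 to 0.43, against -0.18 to 0.19. At 2-fold 0 of 26 were higher, against 2.59%. With total counts as the scale every ratio was lower by 0.07 on the log2 scale. Insig1 then fell short of 1.5-fold and Tm7sf2 passed it downward, so that 2 genes were higher and 1 lower. The shares of all tested genes on that scale were not computed.

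**Figure D1:**
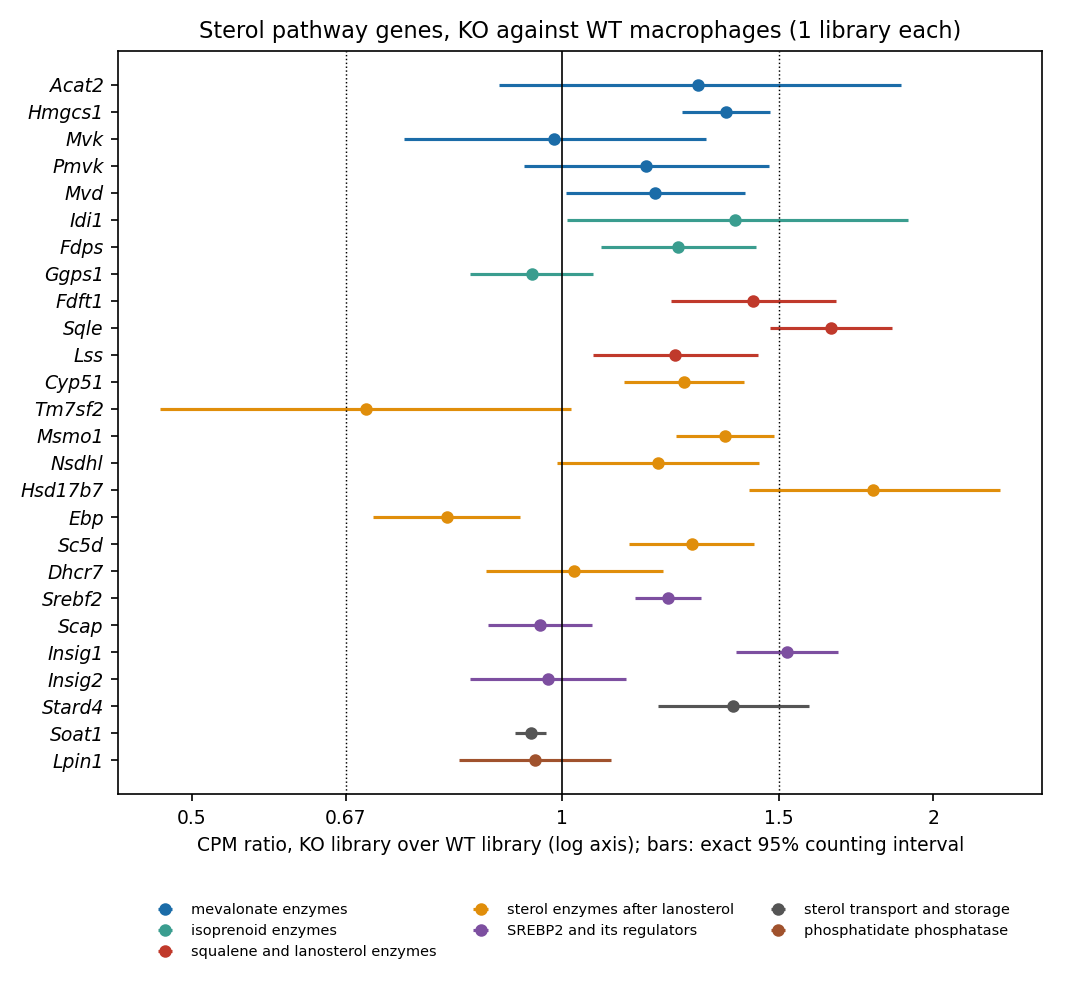
KO over WT ratio of CPM for each of the 26 genes (log axis), coloured by role; points are the 1 ratio each gene has, bars the exact 95% counting interval, dotted lines 1.5-fold in either direction. Hsd17b7, Sqle and Insig1 lie beyond the upper line, Ebp and Soat1 have intervals below 1, and Tm7sf2 lies lowest with an interval that reaches 1.02.

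The stretches before the start of 5 genes are printed to show the letters that SREBP2 and its partner NF-Y are known to bind. NF-Y is a trimeric factor that recognises the CCAAT box and works together with SREBP2 at sterol genes. The sequences are from RefSeq for GRCm38.p6, 5′ to 3′ on the gene's strand, and give the 250 bases before an annotated start. Capitals mark matches to TCACNCCAC, a form of the sterol regulatory element (SRE), and to CCAAT, both searched on both strands, so that a CCAAT box on the other strand reads ATTGG. Hmgcs1 is shown for its SRE match, Hsd17b7 and Insig1 as the genes at least 1.5-fold higher that the promoter table holds, Msmo1 as the enzyme with the highest level per length, and Mvk as a gene with many CCAAT boxes whose level differed little. Their places are chr13:119690101-119690350 on the plus strand (Hmgcs1), chr1:169969206-169969455 on the minus strand (Hsd17b7), chr5:28071162-28071411 on the plus strand (Insig1), chr8:64733579-64733828 on the minus strand (Msmo1) and chr5:114444019-114444268 on the plus strand (Mvk).
Hmgcs1: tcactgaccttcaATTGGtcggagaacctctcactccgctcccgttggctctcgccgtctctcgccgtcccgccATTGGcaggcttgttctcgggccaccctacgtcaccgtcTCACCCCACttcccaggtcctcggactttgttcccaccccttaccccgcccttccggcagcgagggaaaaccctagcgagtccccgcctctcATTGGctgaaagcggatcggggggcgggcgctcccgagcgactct
Hsd17b7: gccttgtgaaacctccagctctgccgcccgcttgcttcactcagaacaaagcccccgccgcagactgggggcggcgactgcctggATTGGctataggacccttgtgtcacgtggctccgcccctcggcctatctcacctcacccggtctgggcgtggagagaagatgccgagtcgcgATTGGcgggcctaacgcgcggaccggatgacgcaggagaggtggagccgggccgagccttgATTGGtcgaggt
Insig1: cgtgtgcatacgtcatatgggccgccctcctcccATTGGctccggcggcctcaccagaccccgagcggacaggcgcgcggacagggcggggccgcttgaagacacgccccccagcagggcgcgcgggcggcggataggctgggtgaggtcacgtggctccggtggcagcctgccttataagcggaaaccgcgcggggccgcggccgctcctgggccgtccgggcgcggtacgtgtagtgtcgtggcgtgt
Msmo1: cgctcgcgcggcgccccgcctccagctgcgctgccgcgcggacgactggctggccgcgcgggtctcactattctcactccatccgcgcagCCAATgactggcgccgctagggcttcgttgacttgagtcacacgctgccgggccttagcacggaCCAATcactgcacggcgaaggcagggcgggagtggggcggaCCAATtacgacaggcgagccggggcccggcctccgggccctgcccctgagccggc
Mvk: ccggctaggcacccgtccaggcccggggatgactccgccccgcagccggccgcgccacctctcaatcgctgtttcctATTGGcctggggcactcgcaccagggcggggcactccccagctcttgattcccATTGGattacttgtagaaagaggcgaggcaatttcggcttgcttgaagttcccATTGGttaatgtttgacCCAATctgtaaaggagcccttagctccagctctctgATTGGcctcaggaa

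Windows from 250 bases before to 50 after the start were held for 22 of the 26 genes. CCAAT was found in 19 of the 22 on either strand, all but Acat2, Scap and Lpin1, against 42.5% of the 9085 tested genes with a window and 37.4% of all 32851 windows. The Lpin1 window, chr12:16610917-16611216 on the minus strand, lies inside the gene. The stretch before the 5′ end of Lpin1 at 16653903 was not searched. At least 2 CCAAT boxes in 1 window were found in 11 of 22 genes, against 16.6% of tested genes, and at least 3 in 7 of 22, against 5.93%. Those 7 were Hmgcs1, Hsd17b7, Msmo1, Nsdhl, Mvk, Ggps1 and Insig2, with ratios from 0.944 for Ggps1 to 1.79 for Hsd17b7, so genes rich in CCAAT boxes were found among both the higher and the level ones. The SRE letters matched in 1 of 22, Hmgcs1, with its first base at -137 from the start, against 1.42% of tested genes and 1.24% of windows. Only that form was searched, and only in these windows, so a gene without a match is not shown to lack an SRE. GGGCGG, the GC box bound by SP1, was found in 19 of 22, against 67.9% of tested genes and 35.7% of windows. The E-box form TCACGTGA was found in 0 of 22, against 2.22% of tested genes and 0.974% of windows. No motif searched contains another of them, and a match is a description of the sequence, not a site shown to be bound.

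**Figure D2:**
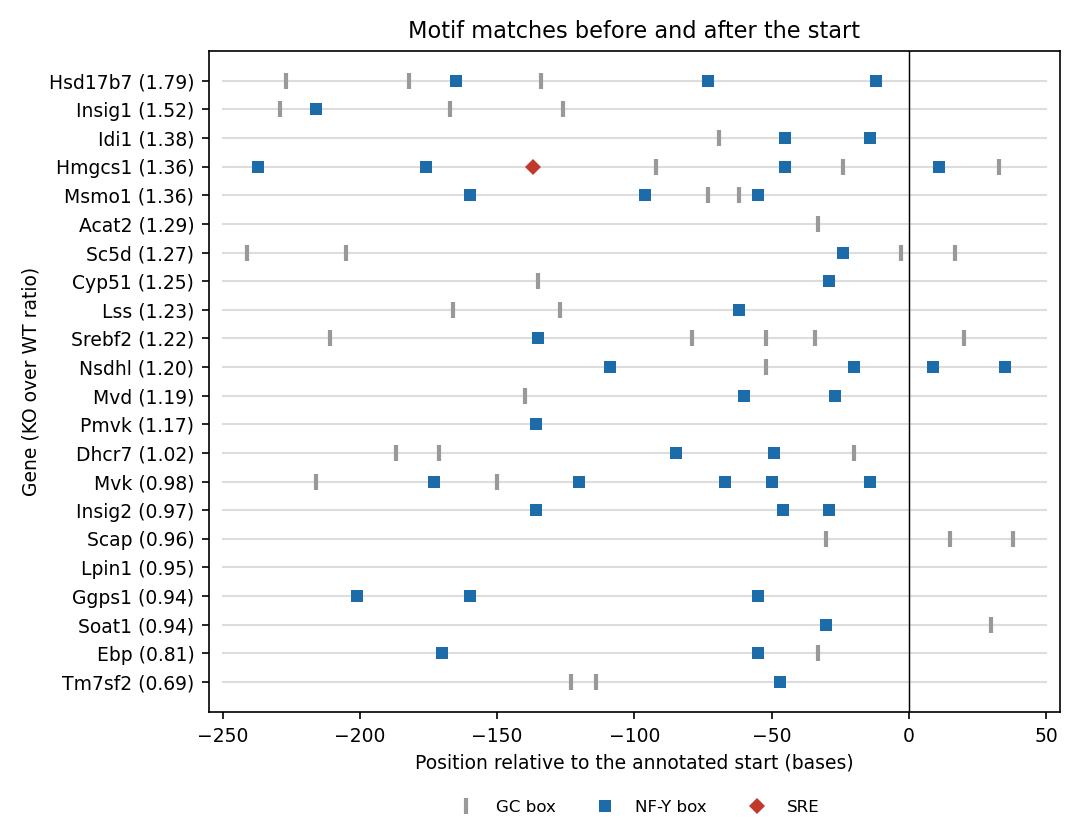
Positions of motif matches around the annotated start (in bases) in 22 genes, ordered from the highest to the lowest KO over WT ratio, which stands in parentheses; squares are CCAAT (NF-Y) boxes, bars GC boxes and the diamond the SRE, each on either strand, and 1 window per gene is drawn, the one with the most matches. CCAAT boxes appear down the whole order, from Hsd17b7 at 1.79 to Tm7sf2 at 0.69.

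The mevalonate arm was higher mainly at Hmgcs1. Hmgcs1 encodes cytosolic HMG-CoA synthase, which condenses acetoacetyl-CoA with acetyl-CoA, and stood at 75.7 CPM (WT, 914 reads) and 103 CPM (KO, 1585 reads), a ratio of 1.36 (1.251 to 1.47). Acat2, the cytosolic thiolase that makes acetoacetyl-CoA, had few reads, 48 and 79, and its ratio of 1.29 had an interval of 0.889 to 1.88. A stretch of 445 bases is 98.7% identical to Tcp1 on the opposite strand, a gene with 1722 reads (WT) and 2503 (KO). Its near copy Acat3 had 2 and 4 reads. How many of the Acat2 reads came from such stretches was not tested. Among the 3 enzymes that phosphorylate and decarboxylate mevalonate, Mvk and Pmvk had intervals that spanned 1, 0.744 to 1.31 and 0.931 to 1.47. Their direction was not settled. Mevalonate kinase (Mvk) stood at 7.70 CPM (WT) and 7.58 (KO), phosphomevalonate kinase (Pmvk) at 10.8 and 12.6 CPM, and the decarboxylase Mvd at 19.5 and 23.1 CPM. Only Mvd of these 3 had an interval above 1 (1.01 to 1.41), and it lay near 1 at its lower bound. The 5 enzymes of the arm summed to 118 CPM (WT) and 151 CPM (KO).

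Among the isoprenoid enzymes, Idi1 and Fdps had intervals above 1 and Ggps1 did not. Idi1, which interconverts the isoprenoid isomers, had 64 reads (WT) and 113 (KO), 5.30 and 7.32 CPM, with a ratio of 1.38 (1.01 to 1.91). Farnesyl diphosphate synthase (Fdps) stood at 25.7 CPM (WT) and 31.9 CPM (KO), a ratio of 1.24 (1.08 to 1.44). Ggps1, which makes geranylgeranyl diphosphate for protein prenylation and so leads away from sterols, stood at 45.5 and 42.9 CPM, with an interval that spanned 1 (0.842 to 1.06). The interval of Ggps1 lay just below that of Fdps without overlap, and it overlapped that of Idi1. A difference between the branches was not tested. Fdps has processed copies at least 95% identical to it, of which Gm3571 had 14 reads (WT) and 30 (KO).

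Squalene synthesis, epoxidation and closure gave the largest group difference among the enzyme groups, with all 3 intervals above 1 and a median log2 ratio of 0.50. Squalene epoxidase (Sqle, chromosome 15), a rate-limiting step of the sterol branch, had 446 reads (WT) and 941 (KO), 36.9 and 61.0 CPM, a ratio of 1.65 (1.47 to 1.85). Only 1 other member, Hsd17b7, had a higher ratio, and 95.6% of tested genes had a lower log2 ratio than Sqle. Squalene synthase (Fdft1), the first step committed to sterols, stood at 21.6 CPM (WT) and 30.9 CPM (KO), a ratio of 1.43 (1.23 to 1.67). Fdft1 shares 774 exon bases with Ctsb on the opposite strand, a cathepsin gene with 167179 reads (WT) and 216555 (KO) and a ratio of 1.01, and without the strand setting its reads cannot be told apart from those of Ctsb there. Lanosterol synthase (Lss), which closes the ring system, stood at 22.7 and 28.0 CPM, a ratio of 1.23 (1.06 to 1.44). The 3 genes summed to 81.2 CPM (WT) and 120 CPM (KO).

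The 8 enzymes after lanosterol did not move as a block. Hsd17b7 (chromosome 1, 169949535 to 169969242), the sterone reductase that works in the removal of the methyl groups at carbon 4, had the highest ratio of all members. It had 106 reads (WT) and 242 (KO), 8.78 and 15.7 CPM, a ratio of 1.79 (1.42 to 2.27), and 96.7% of tested genes had a lower log2 ratio. Its partners in that demethylation are Msmo1 and Nsdhl. The methyl oxidase Msmo1 stood at 60.4 and 81.8 CPM, a ratio of 1.36 (1.24 to 1.49), and the dehydrogenase Nsdhl at 15.6 and 18.6 CPM, with an interval that reached 1 (0.991 to 1.44). The interval of Hsd17b7 overlapped those of Msmo1 and Nsdhl. Overlap alone does not show that ratios are alike, and the order of the 3 was not tested.

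Cyp51, the lanosterol demethylase, and Sc5d, the desaturase late in the route, were also higher in the KO library. Cyp51 stood at 42.1 CPM (WT) and 52.8 CPM (KO), a ratio of 1.254 (1.12 to 1.40). Sc5d stood at 38.6 and 49.1 CPM, a ratio of 1.27 (1.13 to 1.43). Dhcr7, the last reductase of one route to cholesterol, was close to level at 21.4 and 21.8 CPM, and its log2 ratio of 0.03 became -0.04 with total counts.

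Ebp and Tm7sf2 had the lowest ratios of the 26 genes, and the interval lay below 1 for Ebp alone of the pair. Ebp, the isomerase that shifts a ring double bond, had 418 reads (WT) and 430 (KO), 34.6 and 27.9 CPM, a ratio of 0.805 (0.702 to 0.924). Tm7sf2, a sterol reductase, had 61 reads (WT) and 54 (KO), 5.05 and 3.50 CPM, a ratio of 0.693 with an interval that spanned 1 (0.471 to 1.02). Tm7sf2 shares 532 exon bases with Vps51 on the same strand, which had 543 and 721 reads. The intervals of Ebp and Tm7sf2 did not overlap those of Cyp51, Msmo1, Sc5d and Hsd17b7, but both overlapped that of Dhcr7, and that of Tm7sf2 also overlapped that of Nsdhl.

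Among the genes that control SREBP2, Insig1 was higher and Scap and Insig2 were not. Insig1 (chromosome 5, 28071412 to 28078662), which retains SCAP in the endoplasmic reticulum and is itself a classical SREBP target, had 652 reads (WT) and 1267 (KO), 54.0 and 82.1 CPM, a ratio of 1.52 (1.38 to 1.67). Insig2, its close relative, which is known to be far less dependent on SREBP, stood at 28.2 and 27.5 CPM, a ratio of 0.973 (0.842 to 1.13). Per kilobase of exon, Insig1 exceeded Insig2 by 2.09-fold in WT and by 3.27-fold in KO. Scap stood at 61.8 CPM (WT) and 59.3 CPM (KO), with an interval that spanned 1 (0.870 to 1.06). Srebf2 itself was the most abundant of the 4 at 141 and 172 CPM, a ratio of 1.22 (1.15 to 1.296). The narrow interval of Srebf2 follows from its 1708 and 2659 reads and lies below that of Insig1.

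Stard4 and Soat1, which move and esterify cholesterol, went different ways. Stard4, a sterol carrier between membranes and a known SREBP2 target, stood at 25.7 CPM (WT) and 35.3 CPM (KO), a ratio of 1.38 (1.19 to 1.59). Soat1, which esterifies cholesterol for storage, was by far the most abundant member with 8820 and 10616 reads, 730 and 688 CPM, and made up 46.4% (WT) and 40.1% (KO) of the CPM of all 26 genes. Its ratio was 0.942 (0.916 to 0.969), a small difference whose interval covers counting error only. Lpin1, a phosphatidate phosphatase of glycerolipid synthesis that SREBP can switch on, stood at 29.6 and 28.1 CPM, with an interval that spanned 1 (0.823 to 1.10). Without Soat1 the other members summed to 842 CPM (WT) and 1029 CPM (KO), 1.22-fold more.

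**Figure D3:**
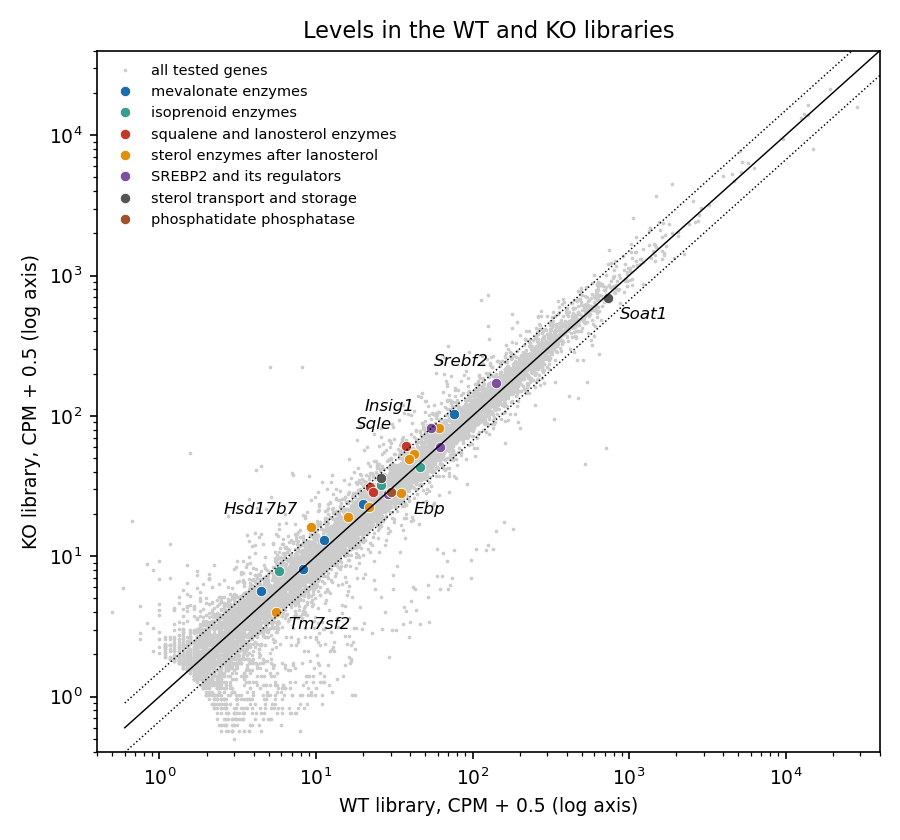
Level of each gene in the WT library (x axis) and the KO library (y axis), both in CPM plus 0.5 on log axes; grey points are the 12495 tested genes, coloured points the 26 members by role, the solid line equality and the dotted lines 1.5-fold. Soat1 lies highest among the members at 730 and 688 CPM, and Sqle, Insig1 and Hsd17b7 lie just above the upper dotted line.

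Expression per length put the members in a similar order in both libraries. Soat1 led at 87.2 CPM per kilobase of exon (WT) and 82.1 (KO). Msmo1 came next at 29.5 and 40.0 CPM per kilobase, then Srebf2 at 27.9 and 33.9. Hmgcs1 (21.7 and 29.5) and Insig1 (20.0 and 30.4) changed places between the libraries, and Acat2 was last in both at 1.59 and 2.05 CPM per kilobase. Sqle ranked 9 of 26 in WT at 13.4 CPM per kilobase and 6 of 26 in KO at 22.1. Across the 26 genes the log2 ratio showed little relation to the level (Spearman's rank correlation 0.104 over 26 genes, which share both libraries and are not independent).

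Genes around the pathway, taken from lists by role, shifted less or in both directions. By the 1.5-fold rule 6.47% of all tested genes were higher and 7.23% lower. Of 18 genes that process SREBP, degrade sterol-regulated proteins or assist SREBP, 1 was at least 1.5-fold higher and 0 lower, with a median log2 ratio of 0.04. The higher one was Nfe2l1, a membrane-bound factor known to sense cholesterol in the endoplasmic reticulum, at 231 CPM (WT) and 355 CPM (KO). Rnf145, a sterol-responsive ubiquitin ligase, stood at 71.4 and 91.2 CPM, Por, the reductase that feeds electrons to Cyp51 and Sqle, at 556 and 672 CPM, and the NF-Y subunit gene Nfyb at 16.1 and 13.4 CPM. Of 13 genes that use isoprenoids for prenylation, dolichol or ubiquinone, 0 passed 1.5-fold in either direction and the median was 0.03. The most distant of them with a mean of at least 5 CPM was Pggt1b, a subunit of a protein prenylation enzyme, with 65.6 and 81.6 CPM.

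Fatty acid synthesis, which the related factor SREBP1 controls, went in both directions. Of 17 tested genes 2 were higher and 2 lower, against 6.47% and 7.23% of all tested genes, with a median of 0.14. Srebf1 stood at 70.5 CPM (WT) and 72.9 CPM (KO). The desaturase gene Scd2 was higher at 47.8 and 82.2 CPM, a ratio of 1.72 (1.56 to 1.90), while Scd1, a near relative, had 84 reads (WT) and 28 (KO), 3.83-fold lower (2.47 to 6.11). The other gene counted as higher was the citrate carrier Slc25a1, with 17 and 90 reads, and the other counted as lower was the elongase Elovl6, with 63 and 45 reads. Scd1, Slc25a1 and Elovl6 are named because of those counts, after their values were seen. Fatty acid synthase (Fasn) stood at 62.8 and 79.5 CPM, acetyl-CoA carboxylase (Acaca) at 24.8 and 34.9 CPM and the acetyl-CoA synthetase gene Acss2 at 4.47 and 6.29 CPM, none of them past 1.5-fold.

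Sterol transfer, oxysterol and efflux genes gave mixed values. Of 11 tested genes of oxysterols, ester hydrolysis and sterol transfer 1 was higher and 0 lower, with a median of 0.20. The higher one was Gramd1a, which carries cholesterol from the plasma membrane to the endoplasmic reticulum, at 60.9 CPM (WT) and 92.4 CPM (KO). The sterol transfer genes Gramd1b (152 and 182 CPM) and Stard3 (77.0 and 93.5 CPM) did not pass 1.5-fold. Cyp27a1, the sterol 27-hydroxylase, stood at 43.3 and 32.3 CPM, short of 1.5-fold lower. Of 8 genes of the LXR receptors and their targets, which respond to sterol excess, 2 were higher and 2 lower, with a median of -0.09. The shares over all tested genes were 6.47% higher and 7.23% lower. Nr1h3 (26.8 and 55.2 CPM), which encodes LXR alpha, and the exporter gene Abcg1 (108 and 177 CPM) were higher, and Apoe (28735 and 15920 CPM) and Mylip (94.9 and 61.7 CPM), which encodes a ligase that degrades lipoprotein receptors, were lower.

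Cell cycle genes had a median log2 ratio close to that of the sterol genes, 0.31 over 20 genes. Of these 6 were higher by 1.5-fold and 1 was lower, against 6.47% and 7.23% of all tested genes. The lower one was Tyms at 52 and 41 reads, which is named because of that count, after its values were seen. Ccnd1 (17.5 CPM (WT) and 33.6 CPM (KO)), Kif11 (9.69 and 17.2 CPM), Rrm2 (12.8 and 20.6 CPM) and Top2a (34.4 and 54.2 CPM) were among the higher ones. Whether the sterol gene values and the cell cycle values belong together was not tested.

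**Figure D4:**
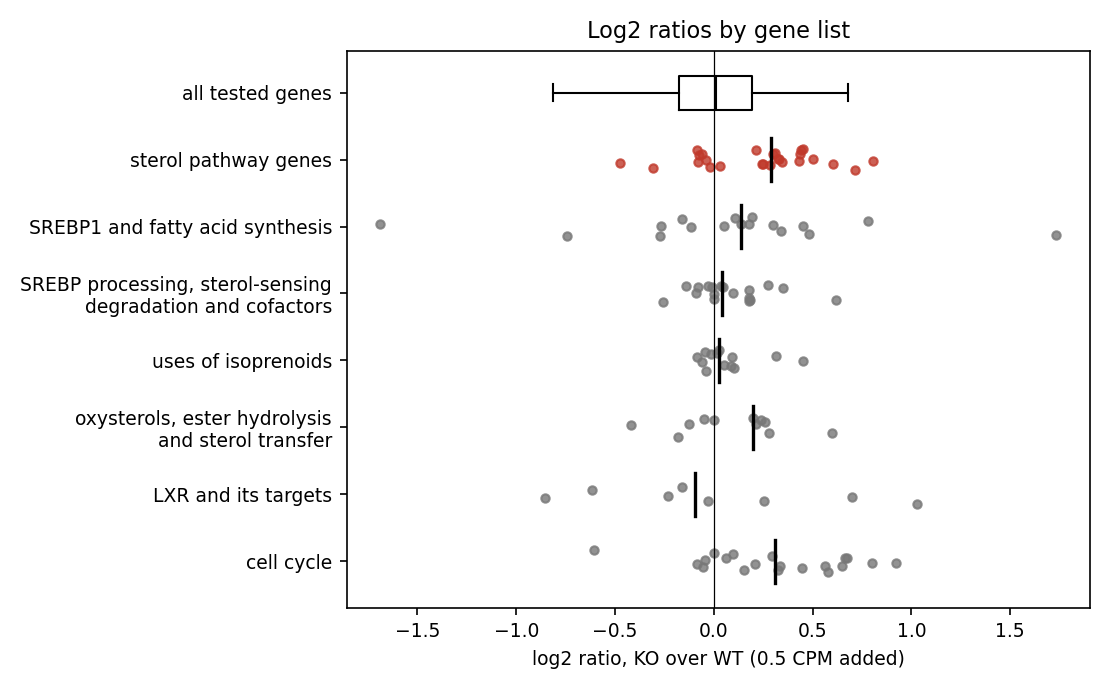
Log2 ratio of KO over WT (0.5 CPM added) by gene list; the box gives the quartiles and median of all tested genes with whiskers at the 5th and 95th percentiles, points are tested list members and black bars list medians. The sterol pathway genes have a median of 0.29 and the cell cycle genes 0.31, while the other lists lie between -0.09 and 0.20.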

How the data were processed

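RNA of 2 libraries of marrow-derived macrophages, 1 per genotype, was analysed. The authors deposited raw read counts per gene symbol in 1 table, per the file headers. The submitters' processing notes name HISAT2, with no version, and GRCm38. How reads were counted, with which annotation and strand setting, is not given in the sources used here. Overlapping or near-identical genes can therefore hold each other's reads. Counts were scaled to CPM with TMM effective library sizes (edgeR 4.0.16, R 4.3.3). Ratios carry exact Clopper-Pearson 95% intervals of the split of reads (scipy 1.17.1), which cover counting error only; PCR reads without molecular identifiers are not independent molecules. Log2 ratios used 0.5 CPM added to both values. A gene with a mean of at least 1 CPM was tested, and counted as higher or lower at 1.5-fold with an interval that excluded 1. With 1 library per genotype no model test was possible. The calculation was tested on simulated data that held counting error only, with no spread between cultures or animals. That run checks the arithmetic and cannot show how the intervals would fare with such spread. Exon lengths (protein-coding transcripts of the basic set) and overlaps came from GENCODE M21, and positions and promoters from RefSeq, both GRCm38. All 26 symbols matched in both. Near copies were transcripts at least 95% identical over 300 bases. All members are named; from each pathway list the text names up to 4 genes with the largest log2 ratio and a mean of at least 5 CPM, plus Srebf1, Scd1, Slc25a1, Elovl6, Tyms, Ch25h and Cyp7b1, which fall outside that rule and were picked with their values in view. The members and lists were chosen with earlier results of these data known. Alternatives were total counts, median-of-ratios factors (DESeq2 1.42.0), TMM without stroma markers, 2 CPM added, other filters and other fold limits.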

Additional observations from a re-analysis of the deposited data

How the results depend on the processing

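Of the 26 sterol genes, 0 were lower and 3 higher with median-of-ratios factors and with TMM without stroma markers. Total counts gave 1 lower and 2 higher. At a mean of at least 10 CPM, 22 of them remained, with 0 lower and 3 higher. The added CPM does not enter these counts, so adding 2 CPM could not change them. All 26 genes had passed the main filter, so dropping it could not change them either. At 2-fold 0 of the 26 sterol genes were higher, and with the limit at 25% higher 10. Their median log2 ratio ran from 0.22 (total counts) to 0.30 (median-of-ratios factors), and without the 7 members that share exon bases with, or have a near-identical copy in, another counted gene, a setting chosen after seeing the data, it was 0.25. Of 26 log2 ratios 25 kept their sign under the other scalings and with 2 CPM added, Dhcr7 being the exception. Of 104 recomputed member ratios 103 stayed within the counting interval, and Soat1 left it at -0.16 with total counts. Median-of-ratios factors shifted the log2 ratios by only about 0.0089, and TMM without stroma markers by about -0.0002. With such small shifts the ratios could not leave their intervals, so these scalings add little to that count. For SREBP1 and fatty acid synthesis, 1 was higher and 0 lower at a mean of at least 10 CPM, 1 and 1 at 2-fold, and 4 higher at the 25% limit. For SREBP processing, 0 were higher with total counts, 0 at 2-fold and 2 at the 25% limit. For oxysterols and sterol transfer, 0 were higher with total counts and at 2-fold, 2 were lower without a filter, where the median was 0.0018, and 1 at the corresponding limit of 20% lower. LXR targets gave 1 higher and 0 lower at 2-fold. Cell cycle genes gave 0 in both directions at 2-fold, and 0 lower at a mean of at least 10 CPM. These counts follow from the scale, the fold limit or the number of genes tested. Of all tested genes on the main scale, 12.1% were at least 25% higher, 11.4% at least 20% lower and 2.59% at least 2-fold higher. The shares of all genes at 2-fold lower, on the other scales and under the other filters were not computed. The counts in those settings therefore have no background to be read against. No paired analysis was possible because only 1 library stood for each genotype. Depth limits genes with few reads, such as Acat2, Idi1, Mvk and Tm7sf2, whose intervals are the widest among the members on a log scale. On the plain scale of the ratio the interval of Hsd17b7 (1.42 to 2.27) is wider than those of Mvk and Tm7sf2.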

Other observations

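Across the whole table, the SRE letters TCACNCCAC were found in the start windows of 129 of the 9085 tested genes with a window. Of these, 16.3% were at least 25% above WT in the KO library with an interval above 1, against 11.7% of the tested genes without the letters, and the median log2 ratios were 0.05 and 0.01. At the 1.5-fold limit the shares were 6.98% and 6.02%. Hmgcs1 was the single sterol pathway gene among the 129. The 4 sterol genes for which no window was held, Fdps, Fdft1, Sqle and Stard4, had ratios above 1, and 3 of them were at least 25% higher. The 2 genes of the oxysterol list that missed the filter, named after their values were seen, had few reads: Ch25h, which makes 25-hydroxycholesterol, an inhibitor of SREBP processing, had 10 reads (WT) and 3 (KO), and Cyp7b1, an oxysterol hydroxylase, had 17 and 5.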
